A study of Mus musculus with 2 samples.

Results

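The Mir297, Mir466, Mir467 and Mir669 genes are related families of mouse microRNA (miRNA) genes, most of which lie as tandem copies in a single intron of Sfmbt2. Their members were taken by gene name, with earlier results of these data known. All rows of the deposited tables whose identifier carries a GENCODE M21 name with one of these 4 prefixes were taken, which gave 69 genes of 1973: 6 Mir297, 25 Mir466, 17 Mir467 and 21 Mir669 genes. MicroRNA sequencing had been done on total RNA of whole liver from B6NCrl mouse embryos at embryonic day 16.5. The 2 libraries were biological replicates of 1 group, each from healthy pooled embryos of both sexes. Replicate 2 was pooled from 41 embryos, while no number is stated in the labels for replicate 1. The only comparison the design allows is between these 2 pools, so the levels of the families, their order and their spread are described.

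A miRNA is cut from a hairpin precursor, and the bases at positions 2 to 8 of the mature strand, the seed, guide it to the messenger RNAs it represses. Sfmbt2 encodes a Polycomb-group protein. In the mouse it is imprinted and is expressed from the paternal allele in the placenta and other extraembryonic tissue, where the miRNAs of its intron are known to be abundant and to act in placental growth. Many of these hairpins are built of repeated alternating bases and are near-identical to each other.

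Mature sequences of 8 members were matched in the RefSeq table of assembly GRCm38.p6. All of these lie outside Sfmbt2 and had no count in either library. They are shown, with the seed in capitals, as the members whose mature sequence was matched, and they do not stand for the members with counts. The median share of steps between G and U in the hairpins of the 10 members outside Sfmbt2 was 41.7%, against 25.3% in the 10 members with 10 or more counts.
mmu-miR-466q (chr3:28419988-28420007, plus strand): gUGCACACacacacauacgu
mmu-miR-466k (chr3:85467396-85467418, plus strand): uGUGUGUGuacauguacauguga
mmu-miR-466j (chr10:60960802-60960824, plus strand): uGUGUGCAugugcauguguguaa
mmu-miR-466i-3p (chr13:17747552-17747573, plus strand): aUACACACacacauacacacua
mmu-miR-467f (chr11:69635419-69635439, minus strand): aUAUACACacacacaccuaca
mmu-miR-467g (chr5:34732872-34732892, minus strand): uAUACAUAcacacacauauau
mmu-miR-467h (chr9:115381898-115381919, plus strand): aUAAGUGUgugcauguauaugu
mmu-miR-669n (chr3:115979905-115979924, plus strand): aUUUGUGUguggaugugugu

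The 8 sequences carry 8 different seeds, so a shared family prefix did not mean a shared seed among them. One seed, that of mmu-miR-467h, occurs in 1 other mature sequence of the table, mmu-miR-668-5p, and the other 7 seeds occur in no other of the table. Mature sequences of the members inside Sfmbt2 were not matched in it, so a seed shared with them could not be seen. Neighbouring bases switched between purine and pyrimidine at 78.9% of steps in mmu-miR-669n and at 90.0% to 100% of steps in the others. The median over the 1679 mature sequences of the table was 45.0%. The hairpins of the 69 members, taken as a set, were low in GC and rich in steps between G and U. Other purine-pyrimidine switches were not measured in the hairpins. Their median GC content was 37.2%, against 51.7% over the 1825 other listed genes with a hairpin sequence, and steps from G to U or U to G made up a median of 26.1% of their steps, against 15.5%.

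Of the 69 members, 59 lie inside Sfmbt2 on its strand (chromosome 2, 10370510 to 10595253 of the mm10 assembly, plus strand). All 59 fall within 1 intron of 62.5 kb (10461473 to 10523944), which is intron 10 of transcript Sfmbt2-201, and none overlaps an exon of that gene. From the first to the last, these members span 51.6 kb. The other 10 are Mir466f-4, Mir466i, Mir466j, Mir466k, Mir466q, Mir467f, Mir467g, Mir467h, Mir669n and Mir297-1, on 7 chromosomes. Another 12 genes with these prefixes in GENCODE M21 were not analysed here.

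The libraries held 5930074 and 5102289 gene counts in replicates 1 and 2, so that 1 count was worth 0.169 and 0.196 CPM, the counts of a gene scaled to equal library totals. Where a gene had no count, the upper limit was set at 3 counts (0.506 and 0.588 CPM), for counting error only. Reads that mapped to several places are in no gene count. They are kept in 1 tally, of 3968471 and 3433679 reads, that is not divided by gene. It made up 28.1% and 28.2% of all reads tallied and was 274 and 321 times the summed counts of the 4 families. Near-identical copies lose their reads to this tally, so every level given here counts only reads that could be placed at 1 copy. The labelled tissue was checked against markers: the hepatocyte miRNA genes Mir122, Mir192, Mir194-2 and Mir148a together held 22.0% and 22.2% of the gene counts and the erythroid genes Mir451a, Mir144 and Mir486 held 2.41% and 2.72%. Mir122 alone made up most of the hepatocyte sum, at 213274 of 219881 CPM in replicate 1 and 214555 of 221989 CPM in replicate 2. The list for pluripotent cells or early trophoblast held Mir290a, Mir291a, Mir292, Mir293, Mir294, Mir295, Mir302a, Mir302b, Mir302c, Mir302d and Mir367. Of these 11 miRNA genes, 10 had a count and Mir367 had none, and together they reached 123 and 115 CPM.

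The 4 families together held 14506 counts in replicate 1 and 10697 in replicate 2, or 0.227% ± 0.025 (SD, n = 2) of the gene counts. Replicate 1 stood at 0.245%, with an exact 95% interval (Clopper-Pearson) of 0.241% to 0.249%. Replicate 2 stood lower, at 0.210%, with an interval of 0.206% to 0.214%. The intervals do not overlap, but they cover counting error only, and PCR copies without molecular identifiers are not independent molecules. Counts over a hairpin come from its short mature products, so levels were not divided by hairpin length. No member had a count in the column taken as the opposite strand.

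The Mir467 family made up most of this level, at 1928 CPM in replicate 1 and 1679 CPM in replicate 2 (mean 1804 ± 177, SD, n = 2). The Mir669 family followed at 495 and 397 CPM (446 ± 69.5). The Mir466 family, the largest by number of genes, reached only 19.6 and 20.4 CPM (20.0 ± 0.581). The Mir297 family had 19 counts in replicate 1 and 3 in replicate 2, or 3.20 and 0.588 CPM, so its level in replicate 2 did not exceed that allowed by a count of 0. The order of the families was the same in both libraries, and no neighbours in it overlapped. It is an order of uniquely placed counts, and how many reads each family lost to the multimapping tally is not known. The plot of family levels shows this order.

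**Figure D1:**
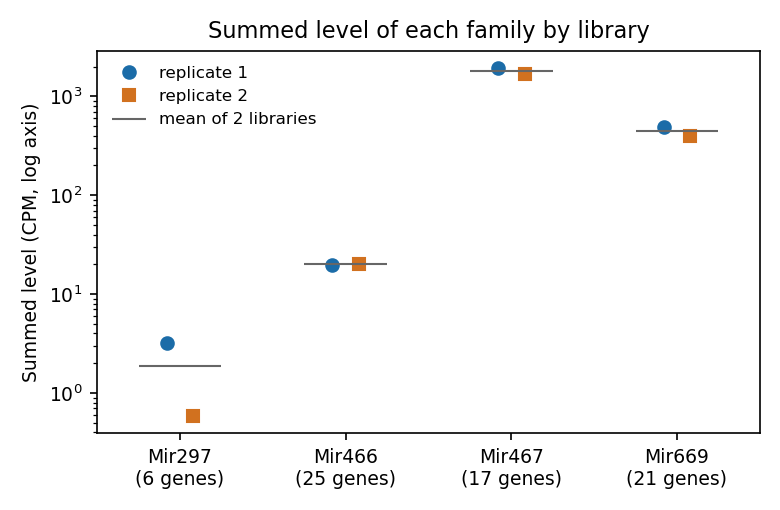
Summed level of each family in CPM (log axis) in replicate 1 (circles) and replicate 2 (squares), with the mean of both as a line. Mir467 lies highest at 1928 and 1679 CPM, and Mir297 lowest at 3.20 and 0.588 CPM.

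Within the Mir467 family, 3 genes carried nearly all counts. Mir467d (ENSMUSG00000077021.2; chromosome 2, 10507630 to 10507714) had 4188 counts in replicate 1 and 3152 in replicate 2, or 706 and 618 CPM (662 ± 62.6, SD, n = 2), and was the highest member in both libraries. Mir467e (ENSMUSG00000076948.2; 10505721 to 10505807) had 3535 and 2905 counts, or 596 and 569 CPM (583 ± 18.9). Mir467c (ENSMUSG00000077049.2; 10473931 to 10474027) had 3712 and 2503 counts, or 626 and 491 CPM (558 ± 95.7). Mir467c was above Mir467e in replicate 1 and below it in replicate 2, by 1.05-fold and 0.862-fold, so these neighbours in the order did not differ beyond their spread. Mir467d exceeded Mir467e by 1.18-fold and 1.09-fold, without overlap of their ranges over the libraries. It exceeded Mir467c by 1.13-fold and 1.26-fold within each library, but the ranges of these 2 genes overlapped. Together the 3 genes held 78.8% and 80.0% of the counts of all 4 families.

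The other 14 Mir467 genes were at or near 0. Mir467b had 0 and 4 counts, Mir467a-1 had 1 and 2, and the remaining 12, which are the 9 other Mir467a copies and Mir467f, Mir467g and Mir467h, had none. Of the Mir467a copies, 6 have hairpins identical to each other and 3 more form another identical group. A read from these identical hairpins fits several copies, so their 0 does not show that the mature miRNA was absent.

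In the Mir669 family, 5 of 21 genes reached 1 CPM in each library. Mir669o (ENSMUSG00000077086.1; 10514300 to 10514395) had 1425 and 999 counts, or 240 and 196 CPM (218 ± 31.5, SD, n = 2). Mir669l (ENSMUSG00000076959.1; 10468971 to 10469068) had 1066 and 728 counts, or 180 and 143 CPM (161 ± 26.2). Mir669o exceeded Mir669l by 1.34-fold and 1.37-fold, and the 2 genes did not overlap. Mir669c was lower, with 332 and 238 counts (56.0 and 46.6 CPM). Mir669e had 66 and 39 counts (11.1 and 7.64 CPM) and Mir669h had 40 and 18 (6.75 and 3.53 CPM). Mir669f had 6 and 2 counts, and the other 15 genes, Mir669n and the listed Mir669a copies among them, had none. The shares of the family total were nearly equal in both libraries: Mir669o took 48.6% and 49.4% and Mir669l 36.3% and 36.0%.

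The Mir466 and Mir297 families each rested on a single gene. Mir466n had 111 and 98 counts, or 18.7 and 19.2 CPM (19.0 ± 0.346, SD, n = 2), which was 95.7% and 94.2% of the counts of the 25 Mir466 genes. Mir466o, Mir466f-2, Mir466b-3, Mir466h and Mir466l had 0 to 3 counts in a library, and 19 Mir466 genes had none. Mir297a-2 had 18 and 3 counts, or 3.03 and 0.588 CPM. Mir297b had 1 count in replicate 1, and the other 4 Mir297 genes had none.

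Over all 69 members, 9 reached 1 CPM in each library (13.0%, against 20.1% of the 1973 listed genes). A level of 100 CPM or more in each library was reached by 5 of the 69 members and by 177 of the 1973 listed genes (8.97%). The 5 were Mir467c, Mir467d, Mir467e, Mir669l and Mir669o, which held 96.0% and 96.2% of the families' counts. Another 50 had no count in either library, or 72.5%, against 64.1% of all listed genes. The median member was therefore at 0 CPM, as was the median listed gene. By mean level the highest member, Mir467d, ranked 101 among the 1973 genes. In the plot of members by library, the 5 genes above 100 CPM are separated from Mir669c, and members with fewer than 10 counts scatter around 1 CPM and below.

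**Figure D2:**
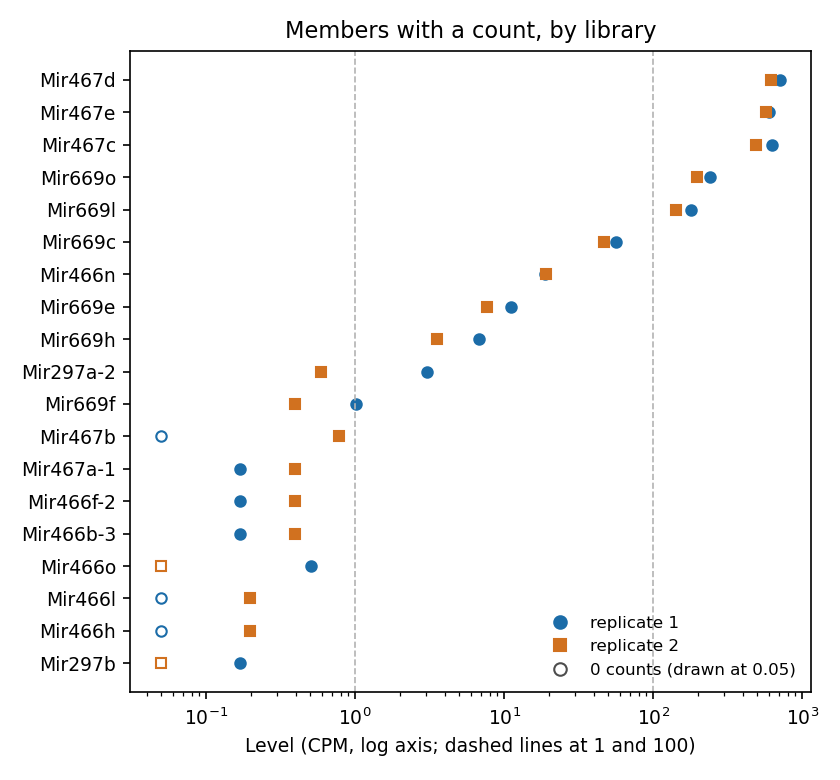
Level in CPM (log axis) of the 19 members with a count, in replicate 1 (circles) and replicate 2 (squares), with open symbols for 0 counts. Mir467d, Mir467e and Mir467c lie highest, between 491 and 706 CPM.

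Members with counts lay toward both ends of the array, with few in its middle. The 10 Mir467a copies recur at a median spacing of 2462 bases (2413 to 4880), interleaved with Mir466 and Mir669 copies. The stretch from the first to the last of them (10476346 to 10503355, 27.0 kb) holds 23 members, of which 2 had a count, with 1 count in replicate 1 and 6 in replicate 2 in all. Upstream of it (8.76 kb), 7 of 15 members had a count, with 822 and 642 CPM, led by Mir467c and Mir669l. Downstream of it (14.7 kb), 10 of 21 had a count, with 1624 and 1453 CPM, led by Mir467d, Mir467e and Mir669o. The stretch was defined from gene names and positions after the values had been seen, and no test was made. Beside this position went the amount of shared sequence. As a measure, each hairpin was broken into its overlapping words of 18 bases, and the percentage found in any other listed gene was taken. Its median was 100% in the Mir467a stretch (71.7% to 100%), 61.5% upstream and 66.2% downstream, and 10 of the 12 unlisted copies lie in that stretch too.

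**Figure D3:**
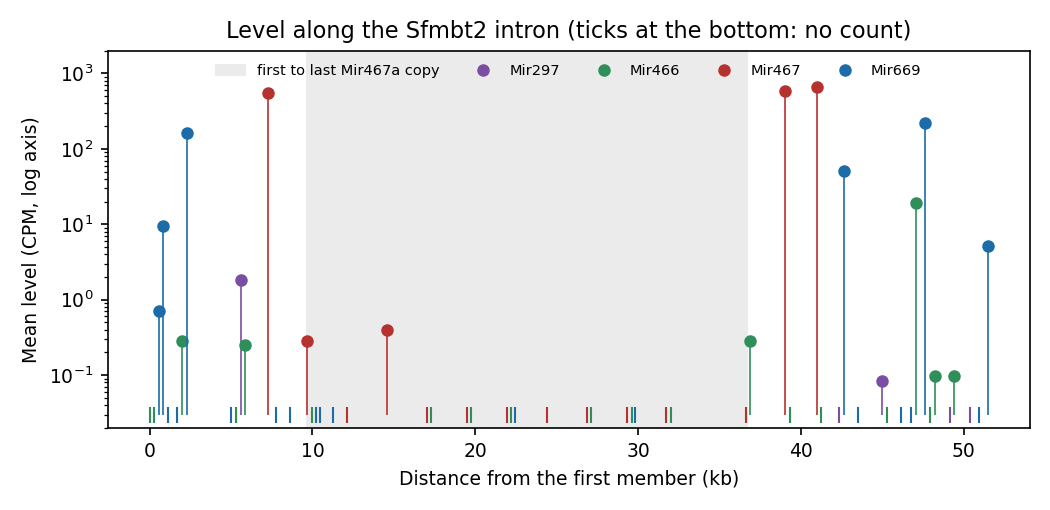
Mean level in CPM (log axis) of the 59 members inside Sfmbt2 against distance from the first member in kb, with ticks at the bottom for members without a count. The shaded stretch from the first to the last Mir467a copy holds 23 members and 2 of the 19 with a count.

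The share of members with 10 or more counts was lower where more sequence was shared, and the part of shared sequence in the counts was not tested. None of the 20 members whose words all recur elsewhere had 10 or more counts, and the highest of them, Mir467a-1, was at 0.280 CPM. Of 32 members with 50% to under 100% of words shared, 5 had 10 or more counts, Mir467d (66.2%), Mir669o (58.2%), Mir466n (54.5%), Mir669l (53.1%) and Mir297a-2 (71.2%). Of 16 members with some but under 50% shared, 5 did: Mir467c (46.3%), Mir467e (45.7%), Mir669h (36.1%), Mir669c (26.1%) and Mir669e (7.84%). The only member with no shared word, Mir466g, had no count. The 10 members outside Sfmbt2 had no count, although their median of 27.9% shared words lay below the 49.7% of the 10 members with 10 or more counts. Words were compared with other listed hairpins on the same strand, and copies elsewhere in the genome were not examined.

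**Figure D4:**
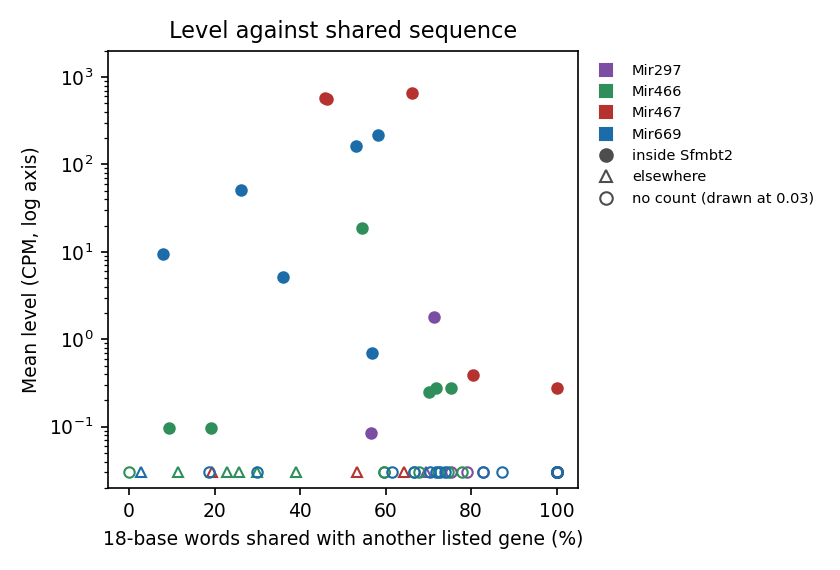
Mean level in CPM (log axis) of the 69 members against the percentage of their 18-base words found in another listed gene, with circles inside Sfmbt2, triangles elsewhere and open symbols for no count. The members with the highest level lie between 45.7% and 66.2%, and the triangles are open.

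The leading genes of the Mir467 family were close to each other in sequence, as were those of the Mir669 family. Among the 10 members with 10 or more counts, the hairpins of Mir467d and Mir467e were the most alike, with 92.0% identical positions in a global alignment. Mir467c matched them at 83.5% and 83.7%, and Mir669l matched Mir669o at 81.8%. The median over all 45 pairs was 64.9% (54.6% to 92.0%). Between families the highest members were less alike than the pairs named above. They ranged from 64.9% for Mir467d and Mir466n to 73.6% for Mir467d and Mir297a-2, with 69.7% for Mir467d and Mir669o. Likeness did not follow family throughout: Mir669l matched Mir466n at 76.2% and Mir669c, of its own family, at 67.9%. A read that fits 2 of these hairpins equally is not in their counts, so the order within the Mir467 and Mir669 families is one of uniquely placed counts.

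The families were set beside the miR-290 to miR-295 cluster, which is expressed in pluripotent cells and early trophoblast, and the distal Dlk1-Dio3 cluster from Mir379 to Mir410, another large imprinted miRNA cluster. The first, with 7 listed genes, reached 85.3 CPM in replicate 1 and 75.8 CPM in replicate 2, and 5 of its genes reached 1 CPM in each library. Its sum was thus 0.0349 and 0.0362 of that of the 4 families. The distal Dlk1-Dio3 cluster, with 33 listed genes, held 11.5% and 11.1% of all gene counts, 46.9 and 52.8 times the sum of the 4 families, with 30 genes at that level. None of the genes in either cluster shares 50% or more of its words with another listed gene, against 52 of the 69 members and 27.1% of the 1825 other listed genes with a hairpin sequence. These differences between clusters were not tested. In whole liver, fewer cells of a type and less RNA per cell cannot be told apart.

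The 2 pools differed in part of the members. Of 69 members, 10 had the 10 counts over both libraries that the test required, and the other 59 were not tested. By a two-sided exact binomial test of the counts of each gene against the library totals, with Benjamini-Hochberg adjustment over all 440 genes tested, 5 of the 10 were lower in replicate 2. None was higher, at the adjusted threshold or at an unadjusted p under 0.05, nor with TMM scaling or DESeq2 size factors. Over all tested genes, 27.0% were called lower and 17.5% higher in replicate 2. Where at least 50 counts were required, 34.3% of the 318 genes tested were called lower, and 5 of the 9 members among them. The test covers counting error alone, and it compares 2 libraries, not conditions.

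Mir467c had the smallest p-value, at 626 CPM in replicate 1 and 491 CPM in replicate 2 (log2 ratio of replicate 2 to replicate 1 -0.35, counting SE 0.04, exact binomial adjusted p = 1.50e-20). Mir467d was 1.14-fold lower in replicate 2 (log2 -0.19, SE 0.03, adjusted p = 5.37e-08 by the same exact test). Mir669o was 1.23-fold lower (log2 -0.30, SE 0.06, adjusted p = 2.37e-06, exact) and Mir669l 1.26-fold lower (log2 -0.33, SE 0.07, adjusted p = 5.20e-06, exact). In Mir297a-2, 18 counts stood against 3 (log2 -2.19, SE 0.84, adjusted p = 0.0091, exact), which rests on few counts. Log2 ratios were computed after adding 0.5 to each count.

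The other 5 tested members did not pass. Mir467e, the closest to Mir467d in hairpin sequence among the 10 tested members, had a log2 ratio of -0.07 (SE 0.04, exact adjusted p = 0.13). That of Mir669c was -0.26 (SE 0.12, adjusted p = 0.069 by the same exact test). Mir669e was at -0.53 (exact adjusted p = 0.12), Mir669h at -0.91 (0.055) and Mir466n at 0.04 (0.96). The ratios of 9 of the 10 were below 0, or of 8 with TMM scaling or DESeq2 size factors, under which that of Mir467e was 0.01. The median log2 ratio of the 10 was -0.31, against -0.08 over all 440 tested genes. With TMM scaling, 50.5% of all genes called were lower in replicate 2, against 60.7% as reported here, while the same 5 members passed.

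**Figure D5:**
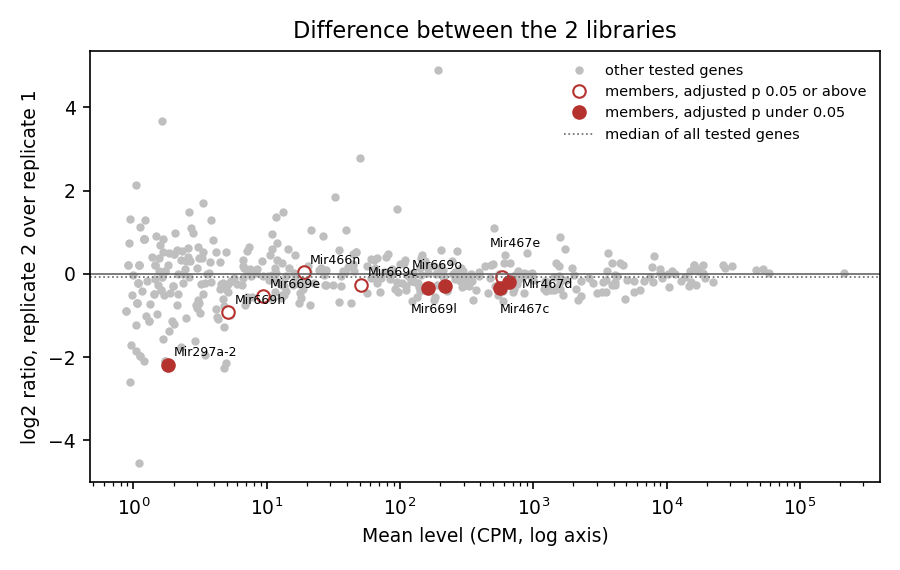
Log2 ratio of replicate 2 to replicate 1 against mean level in CPM (log axis) for the 440 tested genes, with the 10 tested members in red, filled where the adjusted p is under 0.05. The 5 filled members lie between -2.19 and -0.19, below the median of all tested genes at -0.08.

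By family, the log2 ratio of summed counts was -0.20 (counting SE 0.02) for Mir467, -0.32 (SE 0.04) for Mir669, 0.06 (SE 0.19) for Mir466 and -2.26 (SE 0.84) for Mir297, and -0.22 (SE 0.02) for all 4 together. The sum of the distal Dlk1-Dio3 cluster had a log2 ratio of -0.05, with 19 of 30 tested genes lower and 3 higher in replicate 2. The median log2 ratio of these 30 genes was -0.18. For the sum of the miR-290 to miR-295 cluster the ratio was -0.17, with 2 of 6 lower and a median of -0.09. For the sums of the markers it was 0.01 in the hepatocyte list, 0.17 in the erythroid list and -0.09 in the list of pluripotent cells or early trophoblast. Mir122 made up most of the hepatocyte sum. Single genes of these lists differed more than their sums. In the erythroid list, Mir486 had a log2 ratio of -0.66, Mir451a 0.09 and Mir144 0.42, and the hepatocyte list ranged from -0.05 for Mir148a to 0.25 for Mir192. Some genes outside the lists, chosen after their values were seen, differed further. Mir215 had 75 counts in replicate 1 and 1920 in replicate 2 (log2 4.89), and the ratio was 2.77 for Mir802 and 1.85 for Mir194-1. It was 1.56 for Mir141 and 1.09 for Mir200c. Others were lower in replicate 2, such as Mir5103 with 47 and 8 counts (log2 -2.27) and Mir216b with 42 and 18 (log2 -0.98). The part of cell makeup in the difference between the pools was not tested.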

How the data were processed

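The authors deposited raw counts per miRNA gene for each library, with assembly mm10 and GENCODE M4 named in the text deposited beside them. Which aligner and counter were run is not given in the sources used here. Of 3 count columns, the first is the sum of the others, which the files do not name. The second was taken as the sense strand and used. It held 91.9% and 91.8% of the counts of both strands. Both hairpin arms are in 1 count. CPM were computed over all gene rows, without the 4 tally rows. Names, coordinates and hairpins came from GENCODE M21 on the same assembly (1894 of 1973 identifiers matched), and mature sequences from RefSeq, where no member at 100 CPM was matched, so those of members elsewhere are shown. Members with at least 10 summed counts are named with their values, and those named with fewer were chosen after their values were seen. Members, lists and tests were chosen with earlier results of these data known.

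Genes with at least 10 summed counts were tested by a two-sided exact binomial test (scipy 1.17.1) with Benjamini-Hochberg adjustment across all genes and a threshold of 0.05. The test was tried first on simulated counts that held counting error only, so the trial cannot show how it behaves between biological pools. No quasi-likelihood test was fitted, since 1 group has no contrast. Replicates are labelled biological. Hairpins were aligned with biopython 1.88. Alternatives used TMM scaling (edgeR 4.0.16), DESeq2 1.42.0 size factors, other totals, filters and pseudocounts.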

Additional observations from a re-analysis of the deposited data

How the results depend on the processing

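The share of the 4 families was 0.227% of gene counts and ranged from 0.210% to 0.245% when 1 replicate was left out. Without the most abundant gene in the total it was 0.289% (Mir466 0.00254%, Mir467 0.229%, Mir669 0.0567%). Over all tallied reads it was 0.0952% (Mir466 0.000837%, Mir467 0.0756%, Mir669 0.0187%). Without members sharing at least 50% of words it was 0.121% (Mir297 0%, Mir466 0.0000196%, Mir467 0.114%, Mir669 0.00658%), because those members left the sum, and without members sharing any word 0% in each family. Counts irrespective of strand gave 0.00183% for Mir466. The number of members reaching the detection level in both libraries was 9, and 14 with any count in place of 1 CPM.

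The log2 ratio of the 4 families together was -0.15 with TMM scaling and -0.15 with DESeq2 size factors, and that of Mir467 -0.12 and -0.13. These scalings shifted all ratios by 0.08 and 0.07. The number of members lower in replicate 2 was 5 under each of the alternative filters, scalings and counts tried. The same 5 genes passed except where 50 counts were required: Mir297a-2 was then not tested and Mir669h passed (exact binomial adjusted p = 0.0427). No alternative gave a member higher in replicate 2 past the test. No paired analysis was possible because there is 1 group. Ratios between libraries have no value with 1 replicate left out. Depth limits members without a count to below 0.506 and 0.588 CPM of uniquely placed reads.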
